A study of Mus musculus with 4 samples.

Results

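The 10 transcription factors described here, Prrx1, Prrx2, Six2, Foxc1, Foxc2, Zic1, En1, Lmx1b, Tfap2a and Tfap2b, were chosen by gene symbol as regulators that pattern the mesenchyme of the head, and all 10 were found among the 23946 genes measured. Their levels were compared in 4 libraries of bulk RNA-seq, made from poly(A) RNA of the frontal and parietal calvarial bones of C57BL/6J mice at postnatal day 21. Wild-type (WT) mice and mice heterozygous for Twist1 (Twist1+/-) were used, with 12 mice per strain and 1 library for each genotype and bone. Twist1+/- mice lack 1 copy of the gene in every tissue, and how the animals were combined into a library is not given in the sources used here. Because each condition is represented by 1 library, the differences reported below could not be checked against replicates, and neither p-values nor standard deviations are given.

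The frontal bone is formed by the neural crest and the parietal bone by paraxial mesoderm, and both ossify directly from head mesenchyme without a cartilage template. In the embryo the homeobox, forkhead, zinc-finger and AP-2 factors of this group divide that mesenchyme into territories, keep it from maturing too early, and place the boundaries at which sutures form. Twist1, a basic helix-loop-helix factor, acts in the same mesenchyme, and loss of 1 copy can cause the coronal sutures to fuse in mice and in Saethre-Chotzen syndrome. The question addressed by the data is whether the levels of these regulators in postnatal bone differed with the bone and with the Twist1 genotype.

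Levels are given as FPKM, fragments counted per kilobase of transcript and scaled for library size, by an option not given in the sources used here. Twist1 itself was measured at 59.0 FPKM in WT and 30.4 in Twist1+/- frontal bone, and at 52.5 in WT parietal bone and 50.7 in the parietal library labelled Twist1+/-. The level of Twist1 thus set the frontal libraries apart as their labels state, but it did not set the parietal libraries apart, and every direction given for the parietal library labelled Twist1+/- rests on its label. Of 14 osteoblast and osteocyte markers, 12 to 14 reached 1 FPKM in each library. The collagen genes Col1a1 and Col1a2 were listed at 0 in all libraries but WT parietal bone, so a listed 0 is not read as absence here. All 10 transcription factors were above 0 in every library. The study's methods give the depth as an average, that of each library is not known from FPKM values, and low levels rest on fewer reads than high ones. In bulk RNA, fewer cells of a type and less RNA per cell cannot be told apart.

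The promoters of 5 of these genes are shown because they were more than 3-fold apart between the bones in both genotypes (Prrx2 and Tfap2b), because it allows a comparison with its paralog (Prrx1), or because they had similar profiles with the lowest level in WT parietal bone (Foxc2 and En1). Each run holds the 250 bases before the annotated transcript start, 5' to 3' on the strand of the gene, from the mm9 genome with GENCODE M1 transcripts. The start is that of the longest coding transcript, or the outermost among transcripts whose first exons overlap its own. Prrx1 lies at chr1:165243842-165244091 on the reverse strand, and Prrx2 at chr2:30700329-30700578, Tfap2b at chr1:19201885-19202134, Foxc2 at chr8:123639821-123640070 and En1 at chr1:122498745-122498994 on the forward strand. The windows of Prrx2 and Tfap2b are intronic to longer transcripts of the same genes, that of Foxc2 is within an intron of the gene model Gm20388, and those of Prrx1 and En1 are intergenic. None of the windows shown overlaps an annotated exon. Capitals mark each match to CANNTG, the E-box core that basic helix-loop-helix factors such as Twist1 can bind. The motif is its own reverse complement, so a match counts for both strands.
Prrx1: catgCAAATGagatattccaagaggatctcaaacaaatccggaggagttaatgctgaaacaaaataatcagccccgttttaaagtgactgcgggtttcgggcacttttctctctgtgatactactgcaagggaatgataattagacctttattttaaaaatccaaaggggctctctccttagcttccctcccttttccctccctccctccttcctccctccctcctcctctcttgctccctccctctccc
Prrx2: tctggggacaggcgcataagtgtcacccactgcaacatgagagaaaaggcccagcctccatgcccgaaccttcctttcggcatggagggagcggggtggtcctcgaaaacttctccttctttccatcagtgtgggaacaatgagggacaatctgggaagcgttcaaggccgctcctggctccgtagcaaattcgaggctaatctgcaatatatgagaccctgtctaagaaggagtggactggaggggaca
Tfap2b: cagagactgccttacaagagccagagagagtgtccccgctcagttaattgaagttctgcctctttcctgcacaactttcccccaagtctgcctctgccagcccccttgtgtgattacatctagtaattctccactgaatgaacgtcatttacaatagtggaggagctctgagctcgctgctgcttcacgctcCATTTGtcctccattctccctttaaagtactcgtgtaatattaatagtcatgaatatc
Foxc2: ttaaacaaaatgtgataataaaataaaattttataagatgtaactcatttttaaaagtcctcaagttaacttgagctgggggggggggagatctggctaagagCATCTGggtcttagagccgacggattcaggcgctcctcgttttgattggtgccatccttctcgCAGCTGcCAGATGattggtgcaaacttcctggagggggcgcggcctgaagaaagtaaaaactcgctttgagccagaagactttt
En1: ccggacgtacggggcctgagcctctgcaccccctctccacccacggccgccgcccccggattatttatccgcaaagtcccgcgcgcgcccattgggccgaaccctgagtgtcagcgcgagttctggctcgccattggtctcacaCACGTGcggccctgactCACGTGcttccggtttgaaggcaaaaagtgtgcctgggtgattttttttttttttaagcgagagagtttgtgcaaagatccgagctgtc

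En1 held 2 such matches, both CACGTG, starting 106 and 89 bases before the start, and Foxc2 held 3, starting 147, 84 and 77 bases before it. Prrx1 held 1 match 246 bases before the start, and Tfap2b held 1 match 58 bases before it. Of the other members, Zic1 held 1 (CACGTG, 56 bases before the start), and Prrx2, Six2, Foxc1, Lmx1b and Tfap2a held none. The Lmx1b window ends in a reading frame that opens with ATG and runs without a stop codon to the annotated start. That window may thus hold coding sequence and not promoter, which bears on its lack of a match and on its CpG content. At least 1 match was found in 5 of the 10 members and in 63.7% of 22606 promoters of the same length. The homeodomain word TAATTA, which is its own reverse complement, was found in Prrx1 alone of the members, and in 4.66% of all promoters. A match is a string of letters, not a measured binding site, and its absence from 250 bases says nothing of the factor. The promoters also differed in their CpG content, the number of CG steps relative to that given by the C and G content. It was 0.33 in Prrx1, 0.39 in Tfap2b and 0.49 in Prrx2, against a median of 0.496 over all promoters, while the other 7 members lay at 0.66 (Foxc2) or above. A value of at least 0.6 was found in 42.3% of all promoters.

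The paired-related homeobox genes Prrx1 and Prrx2, which mark and pattern the mesenchyme of limb and head, were the most abundant members in WT bones. Prrx1 (chromosome 1 of mm9, 165175247 to 165243841, reverse strand) was measured at 41.6 FPKM in WT and 44.1 in Twist1+/- frontal bone, and at 66.1 in WT parietal bone and 63.4 in the parietal library labelled Twist1+/-. Both parietal values lay above both frontal values, and Prrx1 ranked first among the members in every library, at or above the 93.2 percentile of all genes. Prrx2 (chromosome 2, 30690492 to 30736761, forward strand) was measured at 16.2 FPKM in WT and 12.1 in Twist1+/- frontal bone, and at 62.6 in WT parietal bone and 41.4 in the parietal library labelled Twist1+/-. It had the same order of bones as Prrx1, with a range of 5.17-fold from the highest to the lowest library against 1.59-fold for Prrx1. Prrx2 was thus close to the level of Prrx1 in WT parietal bone, with a Prrx2 to Prrx1 ratio of 0.947, and well below it in WT frontal bone (0.389). The same ratio was 0.653 in the parietal library labelled Twist1+/- and 0.274 in Twist1+/- frontal bone.

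Six2, a sine oculis homeobox factor of head mesenchyme that keeps nephron progenitors undifferentiated, was measured at 10.9 FPKM in WT and 15.6 in Twist1+/- frontal bone, and at 18.5 in WT parietal bone and 18.3 in the parietal library labelled Twist1+/-. The parietal libraries were nearly equal, and WT frontal bone was the lowest. The gene lies on chromosome 17, from 86083608 to 86087594 on the reverse strand.

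The forkhead genes Foxc1 and Foxc2 act in head mesenchyme and meninges, and mice without Foxc1 lack most of the calvaria. Foxc1 (chromosome 13, 31898515 to 31902504, forward strand) was measured at 14.0 FPKM in WT and 17.5 in Twist1+/- frontal bone, and at 18.5 in WT parietal bone and 20.4 in the parietal library labelled Twist1+/-. Its range of 1.46-fold was the smallest of the 10 members. Foxc2 (chromosome 8, 123640071 to 123642792, forward strand) was measured at 6.48 FPKM in WT and 7.61 in Twist1+/- frontal bone, and at 5.59 in WT parietal bone and 10.6 in the parietal library labelled Twist1+/-. Both values labelled Twist1+/- lay above both WT values, and Foxc2 to Foxc1 ratios ranged from 0.302 in WT parietal bone to 0.517 in the parietal library labelled Twist1+/-.

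Zic1, a zinc-finger factor of the dorsal neural tube and neural crest whose altered forms cause coronal synostosis in people, was measured at 10.3 FPKM in WT and 7.59 in Twist1+/- frontal bone, and at 17.7 in WT parietal bone and 17.6 in the parietal library labelled Twist1+/-. The parietal values were nearly the same and lay above both frontal values. Zic1 (chromosome 9, 91252896 to 91260648, reverse strand) has exons that overlap those of Zic4 on the opposite strand, and whether the counting used strand is not given in the sources used here. Zic4 to Zic1 ratios lay between 0.186 and 0.272. Zic2 exceeded Zic1 in both frontal libraries, with Zic2 to Zic1 ratios of 1.16 in WT and 1.37 in Twist1+/- bone, and was below it in WT parietal bone (0.698) and in the parietal library labelled Twist1+/- (0.825).

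En1, an engrailed homeobox factor that marks the mid-hindbrain boundary and regulates calvarial ossification, was measured at 6.94 FPKM in WT and 9.64 in Twist1+/- frontal bone, and at 5.55 in WT parietal bone and 13.9 in the parietal library labelled Twist1+/-. As for Foxc2, both values labelled Twist1+/- lay above both WT values, and WT parietal bone was the lowest. En1 lies on chromosome 1, from 122498995 to 122505873 on the forward strand. Its paralog En2 was at most 0.136 of En1 in any library.

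The last 3 members were low in bone. Lmx1b lies on chromosome 2 from 33416485 to 33496031 (reverse strand), Tfap2a on chromosome 13 from 40811044 to 40829192 (reverse strand) and Tfap2b on chromosome 1 from 19198995 to 19228815 (forward strand). Lmx1b, a LIM homeobox factor that patterns the dorsal limb and the sutures, was measured at 0.248 FPKM in WT and 0.333 in Twist1+/- frontal bone, and at 1.01 in WT parietal bone and 0.481 in the parietal library labelled Twist1+/-. Only the WT parietal value reached 1 FPKM. Tfap2a, an AP-2 factor that acts in neural crest induction, was measured at 0.295 FPKM in WT and 0.304 in Twist1+/- frontal bone, and at 0.300 in WT parietal bone and 0.192 in the parietal library labelled Twist1+/-. Tfap2b, an AP-2 factor of neural crest derivatives, was measured at 0.984 FPKM in WT and 1.68 in Twist1+/- frontal bone, and at 0.169 in WT parietal bone and 0.335 in the parietal library labelled Twist1+/-. It was the only member whose frontal values both lay above both parietal values by more than 2-fold. Exons of Tfap2a overlap those of Gm16989 on the opposite strand, so the low Tfap2a values may hold reads of either gene.

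**Figure D1:**
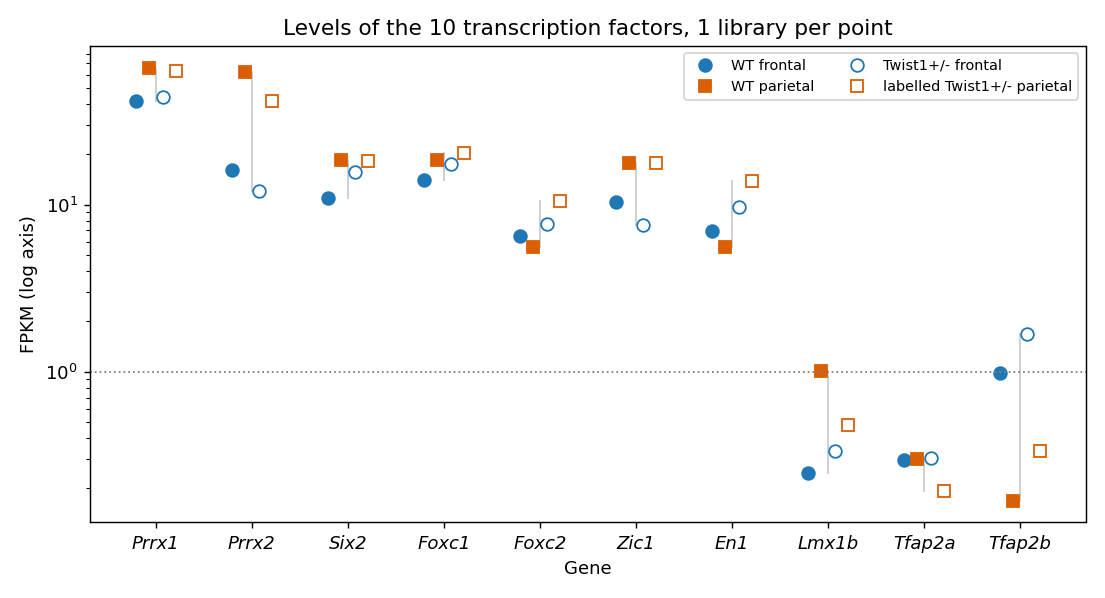
FPKM of each transcription factor on a log axis, with 1 point per library and a dotted line at 1 FPKM (filled, WT; open, Twist1+/-; circles, frontal bone; squares, parietal bone; grey lines, the range of the 4 libraries). Prrx1 and Prrx2 lay highest in WT parietal bone at 66.1 and 62.6 FPKM, Lmx1b, Tfap2a and Tfap2b lay at or below 1.68 FPKM, and Tfap2b was higher in the frontal than in the parietal libraries.

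Prrx1 held the highest level in all 4 libraries, and Lmx1b, Tfap2a and Tfap2b held the lowest 3 places in all of them. Prrx2 held the next place after Prrx1 except in Twist1+/- frontal bone, where Foxc1 and Six2 exceeded it. With 1 library per group no spread can be set beside this order. Several neighbours lay close together, such as Foxc1, Six2 and Zic1 at 18.5, 18.5 and 17.7 FPKM in WT parietal bone.

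The bones were compared first in WT mice. Prrx2 was 3.87-fold higher in WT parietal than in WT frontal bone, a log2 ratio of 1.95, and Lmx1b was 4.07-fold higher, a log2 ratio of 2.03. These were the 2 members past a threshold of more than 3-fold with at least 1 FPKM in the higher library. The study uses a 3-fold threshold, and the floor of 1 FPKM, which 8 of the 10 members reached in each of the 4 comparisons, was added here. Among all 14214 genes at that level, 13.3% were past 3-fold. Lmx1b stood just inside the floor with 1.01 FPKM, and Tfap2b just outside it, with 0.984 FPKM in the higher library and a log2 ratio of -2.54. With Gapdh, a glycolytic enzyme used as a reference gene, brought to the same value in both libraries, every ratio shifts by the 0.44 by which Gapdh itself was higher in parietal bone (215 against 158 FPKM), and the log2 ratios of Prrx2 and Lmx1b were 1.51 and 1.58, both under 3-fold. With a pseudocount of 1 FPKM, which understates differences of low genes, the log2 ratio of Lmx1b was 0.69.

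The remaining members differed less between the WT bones. Zic1, Six2, Prrx1 and Foxc1 had log2 ratios of 0.77, 0.76, 0.67 and 0.40 toward parietal bone. Foxc1 was at -0.04 and Tfap2a at -0.42 when scaled to Gapdh. Unscaled, Tfap2a was level at 0.02, and Foxc2 and En1 had ratios of -0.21 and -0.32, toward frontal bone. In all, 7 of the 10 members had the higher value in parietal bone, with a median log2 ratio of 0.54 that was 0.09 when scaled to Gapdh. Over all genes above 0 in both libraries the median was -0.03, and 8543 genes had the higher value in parietal bone against 9016 in frontal bone. At more than 2-fold, Prrx2 and Lmx1b were again the only members counted, where 26.9% of all genes were past that threshold.

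The same comparison was made in Twist1+/- mice, with libraries that do not enter the WT comparison. Prrx2 was 3.43-fold higher in the parietal library labelled Twist1+/- than in the Twist1+/- frontal library (log2 ratio 1.78). Tfap2b was 5.03-fold lower in parietal bone, a log2 ratio of -2.33. These 2 of the 8 members that reached 1 FPKM were past 3-fold, against 4.09% of 14305 genes at that level. At more than 2-fold Zic1 was added, with a log2 ratio of 1.22, making 3 members against 11.9% of all genes.

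The other members had log2 ratios of 0.53 (Lmx1b), 0.53 (En1), 0.52 (Prrx1), 0.47 (Foxc2), 0.23 (Six2), 0.22 (Foxc1) and -0.66 (Tfap2a). The median over the 10 members was 0.50, with 8 of them higher in parietal bone, and the median of all genes above 0 in both libraries was -0.07. With the median of genes alike in GC content taken off, the median over the members was 0.17, the log2 ratio of Prrx2 was 1.35, under 3-fold, and that of Six2 turned to -0.19. With a pseudocount of 1 FPKM that of Tfap2b was -1.01.

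Set side by side, the bones differed in the same direction in both genotypes for 7 members, Prrx1, Prrx2, Six2, Foxc1, Zic1, Lmx1b and Tfap2b, and in opposite directions for Foxc2, En1 and Tfap2a. Some of these directions depended on processing. Six2 was at -0.19 in mice labelled Twist1+/- with the median of genes alike in GC content taken off. Scaled to Gapdh, the WT ratios of Foxc1 and Tfap2a were -0.04 and -0.42. Without regard to the floor, Prrx2 and Tfap2b were the 2 members more than 3-fold apart between the bones in both genotypes. The share of all genes is not given for these joint counts, so they are not read as a trait of the members. The log2 ratio of parietal to frontal bone in mice labelled Twist1+/-, less that in WT mice, was -0.17 for Prrx2, 0.21 for Tfap2b and -1.50 for Lmx1b.

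**Figure D2:**
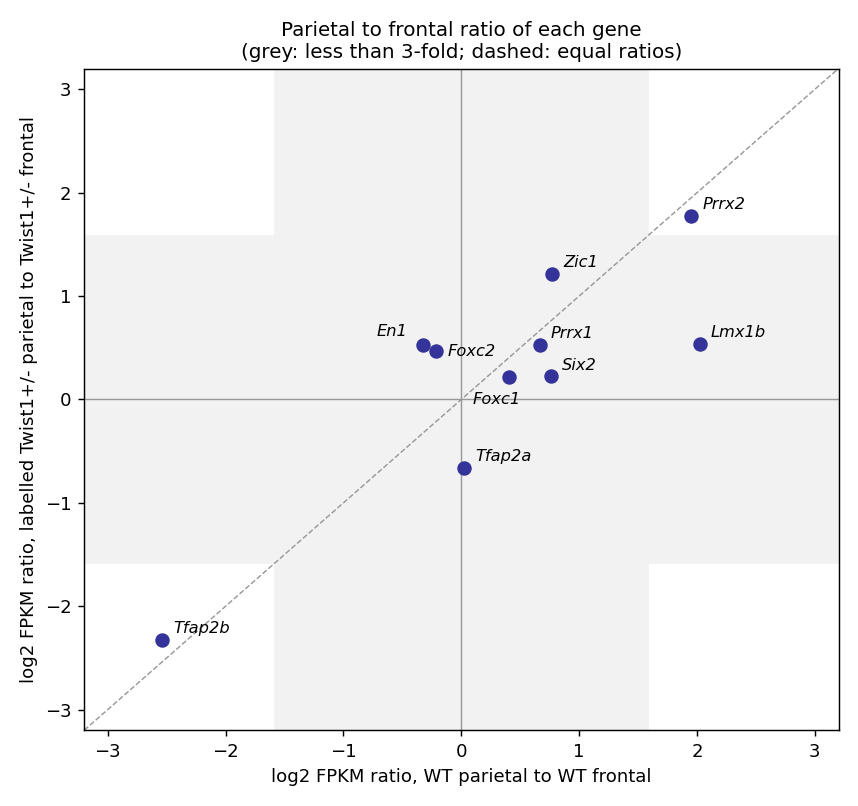
The log2 FPKM ratio of parietal to frontal bone for each transcription factor, in WT mice on the horizontal axis and in mice labelled Twist1+/- on the vertical axis, with 1 point per gene, the range below 3-fold in grey and equal ratios on the dashed line. Prrx2 (1.95 and 1.78) and Tfap2b (-2.54 and -2.33) lay far from 0 on both axes, Lmx1b on the WT axis only (2.03 and 0.53), and En1 and Foxc2 were to the left of 0 on the WT axis and above 0 on the other.

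Other cells in the bone samples differed between the same libraries. The 10 markers of periosteal and fibroblast mesenchyme, a tissue in which Prrx1 and Prrx2 are also expressed, were all higher in WT parietal than in WT frontal bone, with a median log2 ratio of 1.22 and summed levels of 5214 and 2718 FPKM. In the mice labelled Twist1+/- 8 of the 10 were higher in parietal bone, with a median of 0.65 and sums of 3409 and 2151 FPKM. Meningeal markers summed to 2069 FPKM in WT and 385 in Twist1+/- frontal bone, and to 117 in WT parietal bone and 475 in the parietal library labelled Twist1+/-. A single gene gave 1975, 326.7, 52.82 and 428.5 FPKM of these sums, in the same order. By gene, 8 of 10 were lower in parietal bone in WT mice, with a median log2 ratio of -2.935. In mice labelled Twist1+/- 8 of 10 were also lower, with a median of -0.403. Neuronal and glial markers summed to 75.7 FPKM in WT parietal bone and to between 345.8 and 384.6 FPKM in the other libraries, and were lower in parietal bone for 10 of 10 markers in WT and 9 of 10 in mice labelled Twist1+/-. The part of these cells in the levels of the 10 transcription factors was not tested.

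Muscle markers summed to between 132 FPKM in WT frontal bone and 4303 FPKM in WT parietal bone. Markers of nasal epithelium and glands summed to 297 FPKM in WT and 1465 in Twist1+/- frontal bone, and to 22.5 in WT parietal bone and 1608 in the parietal library labelled Twist1+/-, with Scgb1a1 at 0 in all libraries. Markers of skin and surface epithelium, in which Tfap2a and Tfap2b are expressed, summed to 15.1 FPKM in WT and 54.3 in Twist1+/- frontal bone, and to 8.34 in WT parietal bone and 48.1 in the parietal library labelled Twist1+/-. Cartilage markers summed to between 118 FPKM in WT parietal bone and 347 in WT frontal bone, and Matn1 was at 0 in the parietal library labelled Twist1+/-. A single gene gave 336.6 of the 347 FPKM. By gene, 7 cartilage markers were higher and 1 lower in WT parietal than in WT frontal bone, with a median log2 ratio of 1.565. Marrow and blood markers summed to between 9405 FPKM in WT frontal bone, where Hba-a1 was at 0, and 23718 FPKM in the parietal library labelled Twist1+/-. A single gene gave 8034 of the 9405 FPKM. By gene, 7 of these markers were lower and 1 higher in WT parietal than in WT frontal bone, with a median log2 ratio of -1.089.

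**Figure D3:**
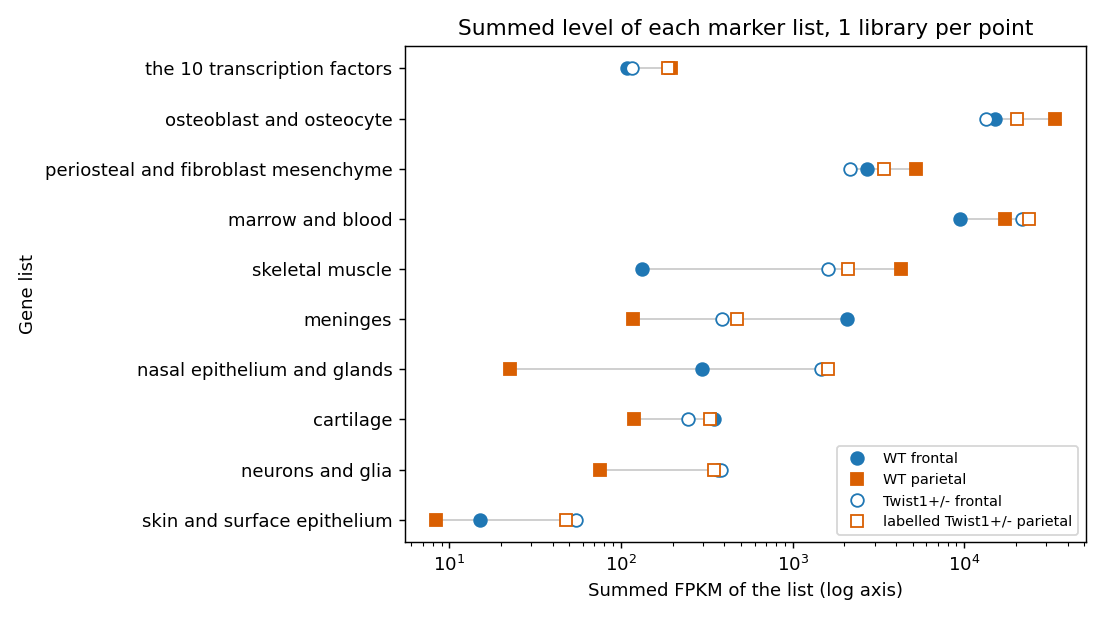
Summed FPKM of the 10 transcription factors and of each list of cell type markers on a log axis, with 1 point per library (filled, WT; open, Twist1+/-; circles, frontal bone; squares, parietal bone). The transcription factors summed to between 108 FPKM in WT frontal bone and 196 FPKM in WT parietal bone, a narrower range than that of the meningeal (117 to 2069 FPKM), muscle (132 to 4303 FPKM) or nasal (22.5 to 1608 FPKM) lists. Part of the range of the osteoblast list comes from Col1a1 and Col1a2, listed at 0 in all libraries but WT parietal bone. In WT frontal bone 1 gene gave 1975 FPKM of the meningeal sum, and 1 gene gave 336.6 FPKM of the cartilage sum.

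The genotypes were then compared within each bone. Between the parietal libraries, En1 was 2.5-fold higher in the parietal library labelled Twist1+/-, at 13.9 against 5.55 FPKM, a log2 ratio of 1.32. Foxc2 was higher in it by a log2 ratio of 0.92, and Lmx1b was lower by 2.10-fold, a log2 ratio of -1.07. None of the 10 members, of which 8 reached 1 FPKM, was past 3-fold, against 8.19% of 13914 genes at that level. En1 and Lmx1b, 2 of these 8 members, were past 2-fold, against 20.2% of the same genes. Prrx2 was lower, at -0.60, as was Tfap2a at -0.65, while Tfap2b was higher at 0.98 with both values under 1 FPKM. Prrx1, Six2, Foxc1 and Zic1 had ratios between -0.06 and 0.14. The median of the members was -0.01 and that of all genes above 0 in both libraries was -0.03. Scaled to Gapdh, which was measured at 215 FPKM in WT parietal bone and at 163.9 in the parietal library labelled Twist1+/-, the log2 ratio of En1 was 1.71, past 3-fold.

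The ratio of the parietal libraries moved with the GC content of the transcript. Over 12075 genes at or above 1 FPKM in both libraries, Spearman's rho was 0.563, a description across genes that are not independent, and the median log2 ratio went from -0.58 in the lowest of 20 bins of GC content to 0.62 in the highest. Among the members, Prrx1 (43.7% GC), Zic1 (45.7%) and Tfap2b (46.0%) lay below the median GC content of all genes, 49.6%, and Prrx2 (63.7%), Foxc2 (62.1%) and Six2 (61.0%) were the most GC-rich. With the median of the GC bin taken off each gene, the log2 ratio was 0.48 for Prrx1, 0.47 for Zic1 and -0.06 for Foxc1, each with its sign turned, and -0.63 for Six2. That of Prrx2 went to -1.21 and that of Lmx1b to -1.57, while Foxc2 went to 0.30. En1 stayed at 1.12, and no member was past 3-fold. Directions of the members other than En1, Foxc2, Tfap2b, Prrx2, Lmx1b and Tfap2a between the parietal libraries thus depended on this step or on scaling.

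**Figure D4:**
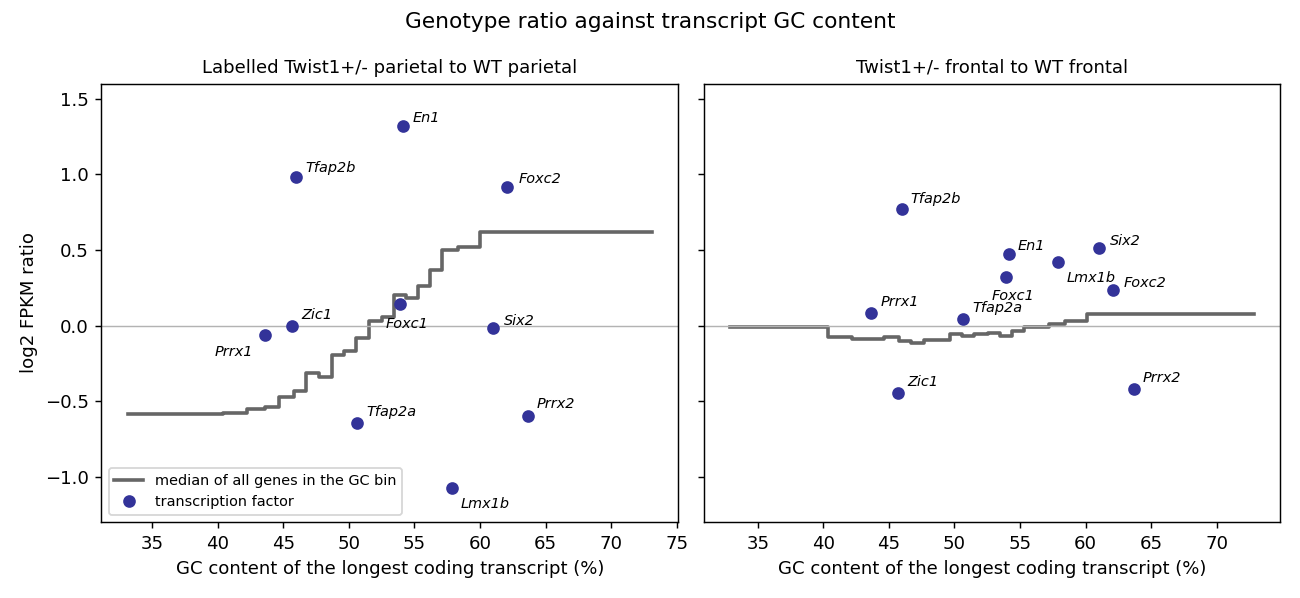
The log2 FPKM ratio of Twist1+/- to WT bone against the GC content of the longest coding transcript in percent, for the parietal libraries (left) and the frontal libraries (right), with 1 point per transcription factor and the grey steps giving the median of all genes in each of 20 GC bins. In the parietal libraries the steps climbed from -0.58 to 0.62, with En1 above them at 1.32 and Prrx2 below them at -0.60, and in the frontal libraries they stayed between -0.11 and 0.08.

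Between the frontal libraries, in which Twist1 was at 30.4 against 59.0 FPKM, the members differed little. None of the 10, of which 8 reached 1 FPKM, was past 3-fold, against 3.89% of 14341 genes at that level. None was past 2-fold, against 7.18% of the same genes. The largest differences were those of Tfap2b, with a log2 ratio of 0.77, Six2 (0.51), En1 (0.47) and Zic1 (-0.45). Prrx2 was lower by a log2 ratio of -0.42, and Lmx1b, Foxc1, Foxc2, Prrx1 and Tfap2a had ratios of 0.42, 0.32, 0.23, 0.08 and 0.04. Thus 8 of the 10 members had the higher value in Twist1+/- frontal bone, with a median of 0.28, though Prrx1 and Tfap2a turned to -0.02 and -0.06 when scaled to Gapdh. Among all genes above 0 in both libraries 8756 were higher and 9464 lower, with a median of -0.02. Muscle markers moved in this comparison, with 11 of 11 higher in Twist1+/- frontal bone and a median log2 ratio of 3.82, as did meningeal markers, with 8 of 10 lower and a median of -1.81. Markers of skin and surface epithelium were higher in Twist1+/- frontal bone for 10 of 11 genes, with a median of 2.01, and nasal markers for 9 of 9 above 0 in both libraries, with a median of 2.04. The part of these cells in the members' values was not tested.

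Across the genotype comparisons, 6 members had the same direction in both bones. The share of all genes that did so is not given here, and the count is not read as agreement between the bones. These comparisons share no library, but the frontal and parietal bones of each genotype may come from the same mice. En1, Foxc2, Foxc1 and Tfap2b were higher and Prrx2 and Zic1 lower with the label Twist1+/-, though the parietal ratio of Zic1 was -0.003. With the median of genes alike in GC content taken off, the parietal ratios of Foxc1 and Zic1 were -0.063 and 0.467. Prrx1, Six2, Lmx1b and Tfap2a had opposite directions in the bones.

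The nearest relatives of the members, 14 paralogs, were described by the same rule. Six3, a forebrain and eye factor whose gene lies next to Six2, was past 3-fold between the parietal libraries, at 1.36 FPKM in the parietal library labelled Twist1+/- against 0.0736 in WT parietal bone, 18.4-fold. Between the WT bones none of the 7 paralogs with at least 1 FPKM was past 3-fold, against 13.3% of all genes. None of 9 was past it between the frontal libraries, against 3.89% of all genes. Among the most abundant paralogs were Zic2, between 10.4 and 14.5 FPKM, and Six5, between 6.17 and 12.1 FPKM. Six6 was listed at 0 in all 4 libraries.

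A wider list of 36 transcription factors of the head, also chosen with earlier results of these data known, was described by the same rule. Between the WT bones 7 of the 27 at 1 FPKM were past 3-fold, against 13.3% of all genes. Dlx1 and Dlx2, distal-less homeobox genes of the branchial arches, were 24.8-fold and 9.16-fold lower in parietal bone, with Dlx1 at 7.47 FPKM in frontal bone. The neural crest factors Sox10 and Foxd3 and the homeobox gene Meis2 were 3.41-fold, 4.67-fold and 3.55-fold lower. Neuronal and glial markers were lower in WT parietal bone too, 10 of 10 with a median log2 ratio of -2.65. So were 8 of 10 meningeal markers, with 2 higher and a median of -2.935. The part of these cells in the values of the lower factors was not tested. Msx2, a muscle segment homeobox gene needed for growth of the calvaria, was 3.58-fold higher in parietal bone, and Eya2, which encodes a partner of sine oculis factors, was 3.05-fold higher.

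Between the parietal libraries 5 of the 27 at 1 FPKM were past 3-fold, against 8.19% of all genes. Pitx1 was 24.9-fold, Dlx1 9.68-fold, Dlx2 8.07-fold and Dlx3 3.26-fold higher in the parietal library labelled Twist1+/-, and Alx1, a frontonasal homeobox gene, was 3.87-fold lower. Neuronal and nasal markers moved the same way as Dlx1, Dlx2 and Pitx1 between these libraries, with median log2 ratios of 1.28 and 4.68 over the markers above 0 in both, and their part in these values was not tested. Between the frontal libraries 3 of 29 were past 3-fold, against 3.89% of all genes, with Pitx1 (3.24-fold) and Barx1 (3.74-fold) higher and Foxd3 (3.36-fold) lower in Twist1+/- bone. Between the Twist1+/- libraries 1 of 29, Alx1, was past 3-fold, against 4.09% of all genes, and it was 3.64-fold lower in parietal bone. Among the most abundant genes of this list were Dlx5, between 25.8 FPKM in WT frontal bone and 57.4 in the parietal library labelled Twist1+/-, and Tcf12, between 21.2 and 42.2 FPKM.

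The members were also compared with each other and with the rest of the genes by the shape of their profile, as the Euclidean distance between log2(FPKM + 1) values centred on their mean over the 4 libraries. This is a description over 4 points, with 12291 genes to choose the nearest from, and the addition of 1 compresses the profiles of low genes. Among the members, Six2 and Foxc1 lay nearest to each other at 0.232, followed by Prrx1 and Six2 at 0.306 and Foxc2 and En1 at 0.308. Prrx2 and Tfap2b were the farthest apart, at 2.79, and Prrx2 lay no nearer than 0.966 to any member, with Zic1 the nearest.

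Of all genes with at least 1 FPKM in every library, those closest to Prrx1 were Gli3 (distance 0.017), Rasa4 (0.021) and Polr2h (0.022). Gli3, a zinc-finger factor of hedgehog signalling, was measured at 2.13 FPKM in WT and 2.32 in Twist1+/- frontal bone, and at 3.87 in WT parietal bone and 3.69 in the parietal library labelled Twist1+/-. Those closest to Prrx2 lay farther off, Scarna17 at 0.230, Egfl6 at 0.233 and Il11ra1 at 0.240. Il11ra1, which encodes a receptor of interleukin 11, was measured at 20.1, 15.1, 65.7 and 42.9 FPKM in the same order of libraries. The closest to Six2 were 1810043G02Rik, Vmac and Clip4, to Foxc1 Slc16a3, Gltscr2 and Efna5, and to Foxc2 F8a, Traf3ip1 and Mfsd10, all within 0.056. Zic1 was nearest to Htra1 at 0.063, then to Duoxa1 and Copz2, and En1 to Ace at 0.077, then to Cpeb1 and Nrtn.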

How the data were processed

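Total RNA of frontal and parietal bones was purified, and stranded poly(A) libraries were sequenced as single-end reads of 75 bases. Per the submitters' processing notes and the study's methods, the authors aligned reads to mm9 with STAR 2.4.2a and deposited gene-level FPKM from Cuffdiff (Cufflinks 2.2.1). The scaling option and the strand setting of the counting are not given in the sources used here. Libraries were grouped by their sample labels, 1 per group.

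Ratios of FPKM were formed with no pseudocount in 4 comparisons. A gene was counted as past a threshold when it differed by more than 3-fold (or 2-fold) with at least 1 FPKM in the higher library, and percentages are over all genes at that level. Members and gene lists were chosen with earlier results of these data known. Genes named were the 10 members, list genes past 3-fold, the 3 highest of each list, Twist1, Gapdh and the 3 nearest profiles of each member with at least 5 FPKM. Some of the list genes are not reported here. Positions, GC content and promoters came from GENCODE M1 on mm9, with GC values for all 10 members and 84.6% of genes. Tfap2a and Tfap2b were matched through their older symbols. Of the 75-base windows of the members' transcripts, 1 (in Six2, shared with Fgf10) occurs in another gene. Alternatives were pseudocounts of 1 and 0.1 FPKM, no floor, a floor of 10 FPKM, a 2-fold threshold, median ratio scaling, Gapdh scaling and subtraction of the GC trend. Calculations used Python 3.11.15 with pandas 2.3.3 and were tested on simulated data.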

Additional observations from a re-analysis of the deposited data

Results flagged for a closer look

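In 6 members the bones or the genotypes moved in opposite directions. For these, the change of the parietal to frontal log2 ratio from WT mice to mice labelled Twist1+/- is given. The ratio also changed in members without opposite directions, by 0.443 for Zic1, 0.211 for Tfap2b, -0.182 for Foxc1 and -0.175 for Prrx2. The share of all genes with opposite directions is not given here. These differences rest on 1 library per group and were not tested. The log2 ratio was higher with the label Twist1+/- by 0.849 for En1 and by 0.683 for Foxc2, genes that were toward frontal bone in WT mice and toward parietal bone in the others. With the GC trend subtracted, the ratios of Foxc2 were near 0, at -0.064 in WT mice and 0.048 in mice labelled Twist1+/-. Those of En1 were -0.213 and 0.390. For Tfap2a, whose levels were all under 1 FPKM, the difference was -0.688. The difference was -1.495 for Lmx1b, -0.529 for Six2 and -0.143 for Prrx1, in which the genotype ratio was positive between the frontal and negative between the parietal libraries. Lmx1b reached 1 FPKM in WT parietal bone alone. With a pseudocount of 1 FPKM its parietal to frontal log2 ratios were 0.688 in WT mice and 0.152 in mice labelled Twist1+/-. The negative parietal ratios of Six2 and Prrx1, -0.017 and -0.059, turned positive with Gapdh scaling, at 0.374 and 0.332.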

How the results depend on the processing

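The number of members past 3-fold between the parietal libraries was 0, but 2 with a 2-fold threshold and 1 (En1) with Gapdh scaling. Between the frontal libraries it was 0 under the 8 alternatives run. Between the WT bones it was 2, but 3 with no floor, 1 with a pseudocount of 1 FPKM, 1 with a floor of 10 FPKM and 0 with Gapdh scaling. Between the Twist1+/- bones it was 2, but 3 with a 2-fold threshold and 1 with each of a pseudocount of 1 FPKM, a floor of 10 FPKM and the GC trend subtracted. Counts with Gapdh scaling were added after the data were seen. A higher floor leaves out the low genes by construction. The median log2 ratio of the members between the parietal libraries, -0.010, became 0.072 with median ratio scaling, 0.118 with the GC trend subtracted and 0.381 with Gapdh scaling. That between the WT bones, 0.535, was 0.091 with Gapdh scaling, and that between the Twist1+/- bones, 0.497, was 0.166 with the GC trend subtracted. Of 200 single-gene values under 5 alternatives, 178 kept their direction and their side of 3-fold, 6 were no longer past it, 1 was newly past it and 15 changed sign without being past it. The cause of these changes was not tested. The depth of each single library was not known. No paired analysis was possible because each group has 1 library.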

Other observations

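Several genes next to the members on the chromosome had other profiles than the members, and those named here were chosen after their values were seen. Gmds, an enzyme of fucose synthesis that lies 8944 bp from Foxc1, was measured at 10.4 FPKM in WT and 8.79 in Twist1+/- frontal bone, and at 19.8 in WT parietal bone and 14.2 in the parietal library labelled Twist1+/-. Foxf2, on the other side of Foxc1, lay between 0.249 and 1.21 FPKM. Asb6 and Ptges, the neighbours of Prrx2, lay between 12.1 and 15.8 FPKM and between 3.27 and 4.39 FPKM, narrower ranges than that of Prrx2. Tfap2d, next to Tfap2b, was at 0.0457 FPKM or less in each library. Insig2, the neighbour of En1 on its right side, was measured at 33.4, 33.3, 68.7 and 40.1 FPKM in the same order of libraries, with WT parietal bone the highest where En1 was lowest.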
